A study of Mus musculus with 5 samples.

Results

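Spleen cells of mice that lack Fos were infected with a virus named deltaNFAT in the labels or with a control virus carrying green fluorescent protein (GFP), and the RNA of both cultures was compared on oligonucleotide arrays. All 10833 probe sets that carried 1 gene symbol and were not array controls were taken, of 12488 on the array, and they stood for 8251 genes. The comparison used 2 of the 5 arrays of the study, 1 per group, so every fold describes 1 pair of arrays, has no replicate error and was not tested.

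Both groups were Fos-/- spleen cells co-cultured for 6 days on ST2-T cells, a stromal line, with dexamethasone, a glucocorticoid, and 1,25-dihydroxyvitaminD3, the active form of vitamin D. They differed in the virus alone, as far as the labels say. The other arrays were of Fos-/- spleen without virus, Fos+/+ spleen and Fos+/+ bone marrow, each uninfected and cultured with the same stroma and hormones. The labels give neither the parts of NFAT in the deltaNFAT construct, nor the type and dose of the viruses, nor the age and strain of the mice. Each dish was lysed whole, so the RNA came from stromal and haematopoietic cells together, and a lower level may come from fewer cells of a type or from less RNA per cell, which cannot be told apart.

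Osteoclasts are the cells that resorb bone and arise from the monocyte and macrophage lineage. Stromal cells supply them with the cytokine RANKL, whose signal runs through AP-1, the transcription factor that contains Fos, to NFATc1, the master regulator of the osteoclast genes. NFAT proteins enter the nucleus after the calcium-dependent phosphatase calcineurin has removed phosphate groups from them. Without Fos, precursors become macrophages in place of osteoclasts, and the comparison addresses which genes differ when such cells receive the deltaNFAT virus.

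Intensities were used on the linear scale as deposited, with values of 20 and under set to a floor of 20. A gene was called when its ratio reached 2-fold with 40 or more on the brighter array, and a fold is written "at least" where the dimmer value was 20 or less. By this rule 177 genes were higher and 132 lower with deltaNFAT, which is 3.53% and 2.63% of the 5020 genes bright enough to be counted. Of the 5856 probe sets bright enough, 207 (3.53%) were higher and 163 (2.78%) lower. The median log2 ratio of all genes was 0.00, and the middle 50% of the genes bright enough lay between -0.19 and 0.20.

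**Figure D1:**
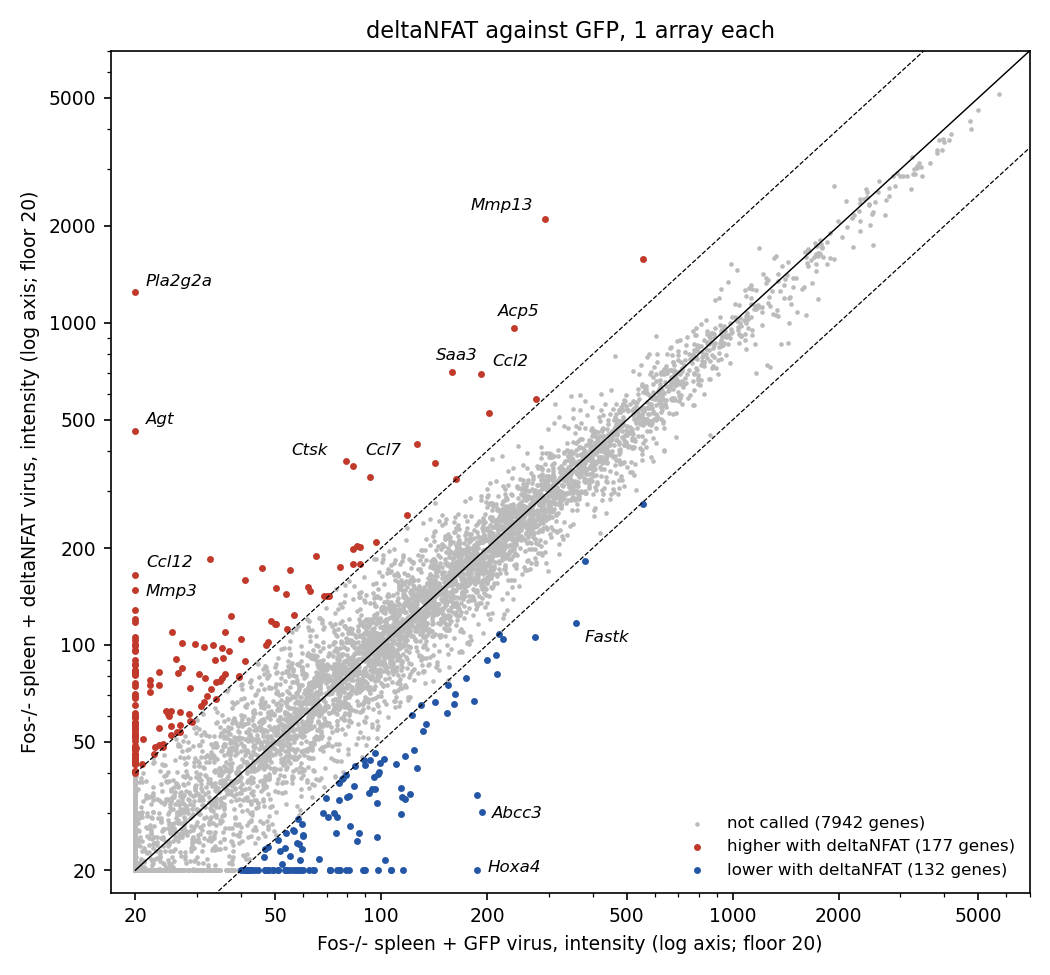
Intensity of each gene with deltaNFAT virus (y axis) against GFP virus (x axis), both on log axes in the arrays' intensity units with a floor of 20, 1 array each; the solid line marks equal values and the dashed lines 2-fold. Pla2g2a and Agt stand farthest above the diagonal (at least 62.3-fold and 23.1-fold) and Mmp13 is the brightest gene called. Most genes called in either direction lie in the dim part of the plot.

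Among bright probe sets, more were higher than lower. Among probe sets whose brighter array read between 40 and 100, 6.69% were higher and 5.59% lower. Between 300 and 1000 these shares were 1.08% and 0.271%, and of the 204 probe sets at 1000 or more, 3 were higher and 0 lower. Those 3 were Mmp13, Mt2 and Pla2g2a. Of the genes, 30 were at least 4-fold higher and 12 at least 4-fold lower, and in 23 and 9 of these the dimmer array was at the floor.

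**Figure D2:**
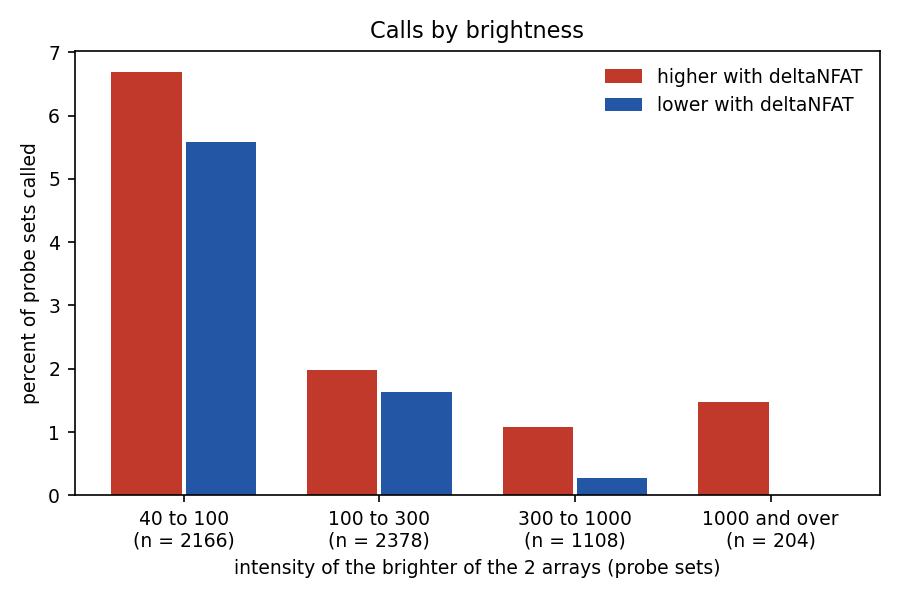
Share of probe sets called higher (red) or lower (blue) with deltaNFAT, in percent, by the intensity of the brighter of the 2 arrays; n is the number of probe sets in each class. The lower calls go from 5.59% in the dimmest class to 0 of 204 in the brightest, and the higher calls from 6.69% to 1.47%.

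The 2 largest folds were those of Pla2g2a and Agt. Pla2g2a, a secreted phospholipase A2, read 1247 with deltaNFAT and 17.1 with GFP, 23.6 without virus, 20.9 in Fos+/+ spleen and 23.0 in Fos+/+ bone marrow. It was at least 62.3-fold higher, and RefSeq (GRCm38.p6) lists the mouse reference gene as a transcribed pseudogene. Agt, angiotensinogen, the precursor of the angiotensin peptides, read 463 with deltaNFAT and lay under the floor on the other 4 arrays, so it was at least 23.1-fold higher. For both genes a single array was high and the other 4 were at or near the floor. Saa3, an acute phase protein made by macrophages and stromal cells, read 704 with deltaNFAT, 159 with GFP, 90.9 without virus, 272 in Fos+/+ spleen and 152 in Fos+/+ bone marrow. The difference between the viruses was 4.41-fold, and the deltaNFAT array was the highest of the 5.

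Mmp13, the collagenase that cleaves fibrillar collagen in bone and cartilage, was the brightest gene called in either direction. It read 2107 with deltaNFAT, 293 with GFP, 106 without virus, 210 in Fos+/+ spleen and 291 in Fos+/+ bone marrow, and was 7.19-fold higher than with GFP. Mmp3, stromelysin 1, which activates other metalloproteinases, read 148 with deltaNFAT and was under the floor in the other arrays, so that it was at least 7.41-fold higher. Both proteases thus stood above all uninfected arrays, the Fos+/+ ones included.

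The promoters of 5 of these genes are shown because these genes had large folds and the virus is named after a factor that binds DNA. The windows run from 250 bases before to 50 bases after the annotated start and come from RefSeq, build GRCm38.p6: Mmp13 at chr9:7272264-7272563 on the plus strand, Mmp3 at chr9:7445572-7445871 on the plus strand, Agt at chr8:124569657-124569956 on the minus strand, Saa3 at chr7:46715627-46715926 on the minus strand, and Ctsk, cathepsin K, at chr3:95498960-95499259 on the plus strand. Capitals mark matches, on either strand and so also as the reverse complement, to the NFAT core GGAAA, the AP-1 site TGANTCA or the STAT site TTCNNNGAA, which in these windows did not overlap each other.
Mmp13: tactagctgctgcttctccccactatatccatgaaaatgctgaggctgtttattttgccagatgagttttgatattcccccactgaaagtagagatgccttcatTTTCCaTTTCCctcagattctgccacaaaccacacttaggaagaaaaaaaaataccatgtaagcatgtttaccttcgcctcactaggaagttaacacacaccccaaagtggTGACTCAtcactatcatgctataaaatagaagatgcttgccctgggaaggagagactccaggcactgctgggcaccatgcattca
Mmp3: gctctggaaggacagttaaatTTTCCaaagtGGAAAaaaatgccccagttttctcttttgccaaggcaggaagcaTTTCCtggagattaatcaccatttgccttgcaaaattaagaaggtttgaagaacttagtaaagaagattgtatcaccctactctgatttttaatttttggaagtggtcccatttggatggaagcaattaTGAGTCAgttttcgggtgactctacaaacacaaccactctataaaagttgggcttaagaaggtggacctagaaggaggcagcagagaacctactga
Agt: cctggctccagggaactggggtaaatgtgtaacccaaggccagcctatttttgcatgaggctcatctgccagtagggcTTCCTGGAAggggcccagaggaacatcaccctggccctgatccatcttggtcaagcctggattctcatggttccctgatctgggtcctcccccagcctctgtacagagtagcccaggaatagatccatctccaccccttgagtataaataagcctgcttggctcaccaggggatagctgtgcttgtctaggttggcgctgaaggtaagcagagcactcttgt
Saa3: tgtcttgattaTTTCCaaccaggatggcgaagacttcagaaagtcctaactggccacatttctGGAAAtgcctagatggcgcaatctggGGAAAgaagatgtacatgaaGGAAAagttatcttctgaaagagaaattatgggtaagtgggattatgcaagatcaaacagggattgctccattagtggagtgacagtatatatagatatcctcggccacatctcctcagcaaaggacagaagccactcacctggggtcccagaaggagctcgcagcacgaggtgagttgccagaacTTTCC
Ctsk: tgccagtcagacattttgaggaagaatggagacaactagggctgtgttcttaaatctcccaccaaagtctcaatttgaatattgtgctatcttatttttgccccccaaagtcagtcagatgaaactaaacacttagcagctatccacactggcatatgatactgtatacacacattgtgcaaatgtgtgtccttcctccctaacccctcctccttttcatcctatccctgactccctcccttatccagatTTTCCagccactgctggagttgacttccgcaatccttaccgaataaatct

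The Mmp13 window held 2 NFAT cores and 1 AP-1 match, the Mmp3 window 3 NFAT cores and 1 AP-1 match, and the Saa3 window 5 NFAT cores. The Ctsk window held 1 NFAT core and the Agt window 1 STAT match and none of the others. Such short motifs are common. Of all 32851 windows in the table, 61.3% held the NFAT core, 7.81% the AP-1 site and 8.30% the STAT site. Among the 167 windows of genes higher with deltaNFAT the shares were 58.7%, 10.8% and 7.19%, and among the 129 windows of genes lower with deltaNFAT they were 60.5%, 6.98% and 9.30%. For all genes bright enough they were 58.7%, 5.95% and 6.60%. The part GGGNNTTTC of the NF-kB site, searched on both strands, was in 4.36% of all windows, 4.19% of those of higher genes and 4.65% of those of lower genes. A match is a description of the letters and says nothing of binding in these cells. Pla2g2a, Ccl2, Ccl7, Cd74, Nfatc1, Car2, Hoxa4 and Abcc3 had no entry.

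The genes of bone resorption were higher with deltaNFAT as a list. Of 16 list members on the array, 15 lay above the floor, 6 of the 14 bright enough were called higher and 0 lower, and their median log2 ratio was 0.53, against 0.00 for all genes. All 15 had a ratio over GFP above 0, from 0.20 to 2.23, but not all were higher than without virus. Of the 5921 genes above the floor, 2997 had a ratio above 0. Against the array without virus, the median was 0.65 with deltaNFAT and 0.00 with GFP, beside -0.04 and -0.06 for all genes.

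Ctsk, the protease that digests bone collagen, read 372 with deltaNFAT, 79.3 with GFP, 61.3 without virus, 2862 in Fos+/+ spleen and 2495 in Fos+/+ bone marrow, a 4.69-fold difference between the viruses. Acp5, the tartrate-resistant phosphatase used to stain osteoclasts, read 964, 239, 462, 3836 and 2580 in the same order and was 4.03-fold higher. Calcr, the receptor through which calcitonin halts osteoclasts, read 86.4 with deltaNFAT, was under the floor on both other Fos-/- arrays and read 337 and 395 on the Fos+/+ arrays, at least 4.32-fold higher. In all 3 genes the deltaNFAT array was the highest of the Fos-/- arrays and below both Fos+/+ arrays.

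Car2, the carbonic anhydrase that makes protons for acid secretion, read 48.4 with deltaNFAT, 13 with GFP, 13.9 without virus, 971 in Fos+/+ spleen and 719 in Fos+/+ bone marrow, at least 2.42-fold higher. The sodium-proton exchanger Slc9b2 read 52.2, was under the floor on both other Fos-/- arrays, and read 357 and 120 on the Fos+/+ arrays, at least 2.61-fold higher. Ckb, a creatine kinase that supplies energy for resorption, read 524, 203, 448, 2784 and 1559 and was 2.58-fold higher than with GFP. Ckb with deltaNFAT was therefore close to the array without virus, and it was the GFP array that read low. As a percentage of Fos+/+ spleen, deltaNFAT reached 25.7% for Calcr, 25.1% for Acp5, 18.8% for Ckb, 14.6% for Slc9b2, 13% for Ctsk and 4.99% for Car2.

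The other resorption genes stayed under 2-fold. Mmp9, a gelatinase of osteoclasts and neutrophils, read 1714 with deltaNFAT and 1188 with GFP (1.44-fold), and its dimmer probe set, at 175 and 77.5, gave 2.26-fold. The myosin Myo1d gave 1.72-fold, the chloride transporter Clcn7 1.40-fold, and the proton pump subunit Tcirg1 1.27-fold. The integrin chain Itgav, the sorting nexin Snx10, the anion exchanger Slc4a2 and the pump subunit Atp6v1c1 lay between 1.15-fold and 1.18-fold. Itgb3, the vitronectin receptor chain, read 27.4 and 22.6, and the kinase Src was under the floor on all arrays. Slc4a2 (68.8 with deltaNFAT and 101.4 without virus), Clcn7 (252.0 and 272.5) and Itgav (260.5 and 264.2) were lower with deltaNFAT than without virus. The remaining resorption genes above the floor were higher with deltaNFAT than without virus.

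**Figure D3:**
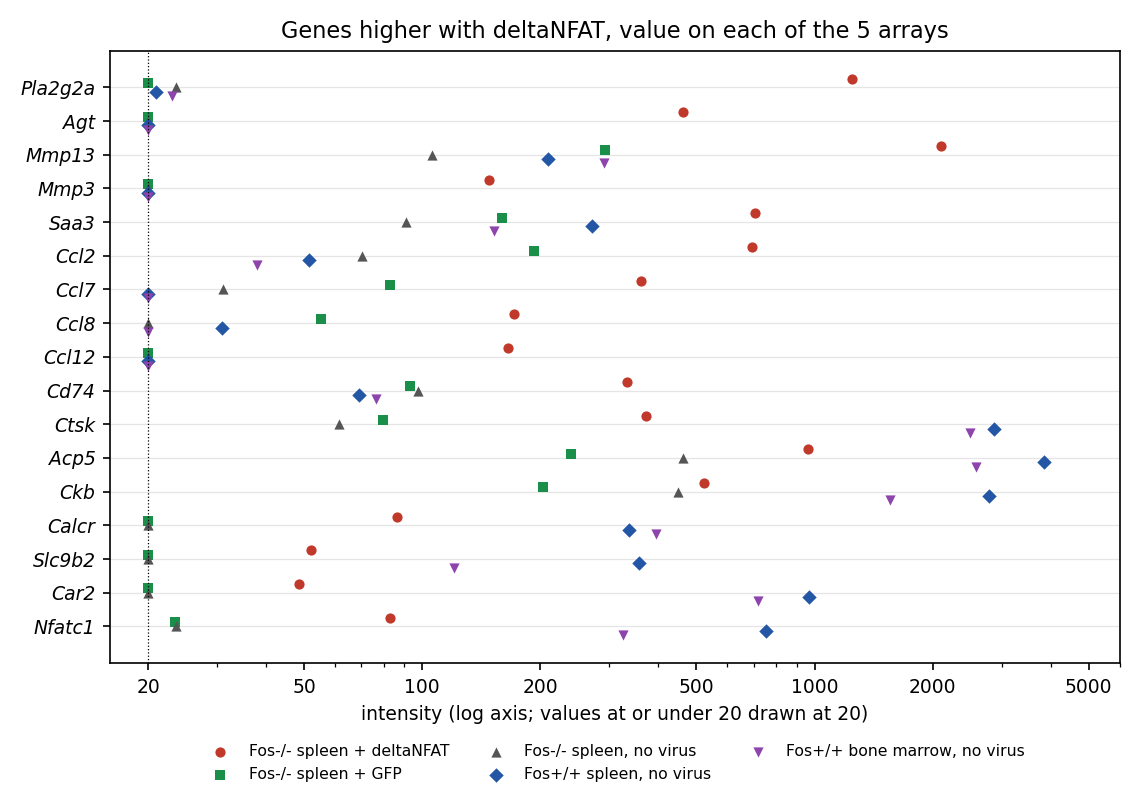
Intensity of named genes on each of the 5 arrays, on a log axis with values of 20 and under drawn at the floor; each symbol is 1 array. Pla2g2a and Agt have 1 array high, whereas Ctsk, Acp5, Calcr and Car2 have the Fos+/+ arrays highest, with deltaNFAT above GFP and no virus.

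Transcription factors and signal genes of osteoclasts lay, as a list, near all genes bright enough, of which 3.53% were higher and 2.63% lower. Their median log2 ratio was -0.02, and 1 was higher and 0 lower among 24 bright members. The gene that counted was Nfatc1 itself, which read 82.7 with deltaNFAT, 23.4 with GFP, 23.5 without virus, 752 in Fos+/+ spleen and 325 in Fos+/+ bone marrow, 3.53-fold higher with deltaNFAT. The sources used here do not say whether these probes also read a viral transcript. The deltaNFAT value was 11% of that in Fos+/+ spleen. Fos read 581 with deltaNFAT and 607 with GFP, a log2 ratio of -0.06, and 426 without virus. The stroma has its own Fos and the position of the probes against the deletion is not stated, so Fos does not check the labels.

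In the list of NFAT and calcineurin genes, 2 of 10 bright members were higher, 0 lower, and the median was 0.05. They were Nfatc1 and Rcan1, an inhibitor of calcineurin and a known target of NFAT. Rcan1 read 209 with deltaNFAT, 96.6 with GFP, 201 without virus, 310 in Fos+/+ spleen and 158 in Fos+/+ bone marrow, 2.17-fold higher than with GFP and level with the array without virus. The calcineurin subunits Ppp3ca (352 and 328) and Ppp3r1 (379 and 424) and the NFAT family member Nfatc2 (207 and 205) were close on the 2 virus arrays. Of 16 T cell cytokines and early genes known as NFAT targets, 4 were above the floor and 1 was bright, the early gene Egr2, at 167 with deltaNFAT and 116 with GFP.

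CC chemokines, small secreted proteins that attract monocytes and other leukocytes, had the highest median of all lists, here and in every other setting tried. Of 14 on the array, 10 lay above the floor, with a median log2 ratio of 1.61, and 6 of the 8 bright ones were called higher and 0 lower. At a floor of 100 the median was 0.75. Ccl2, the main monocyte attractant, read 693 with deltaNFAT, 193 with GFP, 70.1 without virus, 51.3 in Fos+/+ spleen and 38 in Fos+/+ bone marrow. Ccl7 read 360, 82.9, 31.1, 15.3 and 14.2 in that order. Both were high with deltaNFAT, intermediate with GFP and lowest without virus, and were 3.59-fold and 4.35-fold higher with deltaNFAT than with GFP.

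Ccl12 read 165 with deltaNFAT and was under the floor on the other arrays, at least 8.25-fold higher. Ccl8 read 171 with deltaNFAT, 55.2 with GFP, 30.8 in Fos+/+ spleen and under the floor on the other arrays, 3.10-fold higher. Ccl6 read 150 with deltaNFAT, 50.2 with GFP and 98.9 without virus (2.99-fold), and Ccl3 read 71.2, 22 and 34.9 (3.24-fold), so that the GFP array was the lowest of the Fos-/- arrays in both. Ccl9, a chemokine of the osteoclast lineage, read 1343 and 967 and was not called. In the RefSeq gene order (GRCm38.p6) the genes Ccl2, Ccl7, Ccl11, Ccl12, Ccl8 and Ccl1 follow each other on chromosome 11. The 4 called genes of this run had log2 ratios between 1.63 and 3.04, and Ccl11 and Ccl1 were under the floor on both virus arrays. Near copies within a gene family may share probes. The sequences of these chemokines were not compared, so the 4 calls may not be independent of each other.

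Among 17 chemokine receptors, 2 were higher and 1 lower of 5 bright members. Ccr1, a receptor for Ccl3, Ccl7 and other CC chemokines on myeloid cells, read 81.2 with deltaNFAT, 19 with GFP and 18.8 without virus, and was under the floor in both Fos+/+ arrays. It was at least 4.06-fold higher. Xcr1, the receptor for lymphotactin, read 52.9 and 10.8 (at least 2.64-fold). Cxcr3, the receptor for interferon-induced chemokines, read 34.8 with deltaNFAT and 92.3 with GFP, 2.65-fold lower, and was under the floor without virus, so that GFP was the highest of the Fos-/- arrays. The CXC and other chemokines had 0 higher and 0 lower of 4 bright, with a median of 0.01, among them the stromal factor Cxcl12 at 1598 and 1806.

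Of the inflammatory cytokines and their receptors, 1 of 15 bright members was higher, 0 were lower, and the median was -0.01. It was Il1r2, the decoy receptor for interleukin 1, which read 90.4 and 26.0 (3.48-fold), while its other probe set read 82.2 and 49.1 and was not called. Il1rn, the interleukin 1 receptor antagonist, read 387 and 221, and Osmr, the oncostatin M receptor, 213 and 135. Among acute phase genes 1 of 4 bright members was higher, Saa3. Lcn2, the neutrophil lipocalin, read 402 with deltaNFAT and 639 with GFP. JAK-STAT and SOCS genes had 0 of 13 called and a median of -0.21, and 13 NF-kB genes had 0 called and a median of 0.11.

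Matrix metalloproteinases had 2 of 7 bright members higher, 0 lower and a median of 0.34. On chromosome 9 the RefSeq order (GRCm38.p6) runs Mmp13, Mmp12, Mmp1b, Mmp3, Mmp1a, Mmp10, Mmp8, and 5 of these 7 genes are on the array. Mmp12, the macrophage elastase, was named after its values were seen. Its brighter probe set read 231 and 118, just under 2-fold, and the other read 144 and 46.7, a 3.07-fold difference. Mmp10 was under the floor on both virus arrays, and Mmp8, a neutrophil collagenase, read 20.5 with deltaNFAT and was under the floor with GFP. Among inhibitors and plasminogen genes, 0 of 6 were called, with the inhibitor Timp1 at 540 and 352 and Timp2 at 578 and 492.

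Phospholipase and eicosanoid genes were called in both directions, 2 higher and 2 lower of 13 bright, with a median of 0.07. Beside Pla2g2a, the prostaglandin D synthase Ptgds read 68.3 with deltaNFAT and 10.4 with GFP (at least 3.41-fold higher) and 34.4 without virus. Its 2 other probe sets were under the floor on all arrays, and it was not called with the mean of all probe sets. Hpgd, the enzyme that inactivates prostaglandins, read 42.7 and 110 (2.58-fold lower), and Pla2g1b, a digestive phospholipase, read 66.4 and 142 (2.14-fold lower). On chromosome 4 the neighbour Pla2g5 read 192 and 160, a log2 ratio of 0.26, beside 5.96 for Pla2g2a. Agt was the 1 member called among 4 bright genes of the renin-angiotensin list, whose protease Enpep read 219 and 197.

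Interferon response genes were higher with deltaNFAT as a list and were higher still over the uninfected culture. Of 29, 27 had a ratio above 0, beside 2997 of all 5921 genes above the floor, and the median log2 ratio was 0.52. However, 3 of 26 bright members were called higher and 0 lower, beside 3.53% and 2.63% of all genes bright enough. Ifit1, which binds foreign RNA, read 189 with deltaNFAT, 65.4 with GFP and was under the floor without virus and on both Fos+/+ arrays (2.89-fold between the viruses). Ifit3 read 105 and 39.9 (2.62-fold) and Isg15, a ubiquitin-like modifier, 367 and 143 (2.57-fold), and both were under the floor on the 3 uninfected arrays. The median of the list was 1.21 for GFP over no virus and 1.54 for deltaNFAT over no virus, ratios that share arrays with each other. For all genes these medians were -0.06 and -0.04. The labels do not give the virus doses, and their part in these values was not tested.

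**Figure D4:**
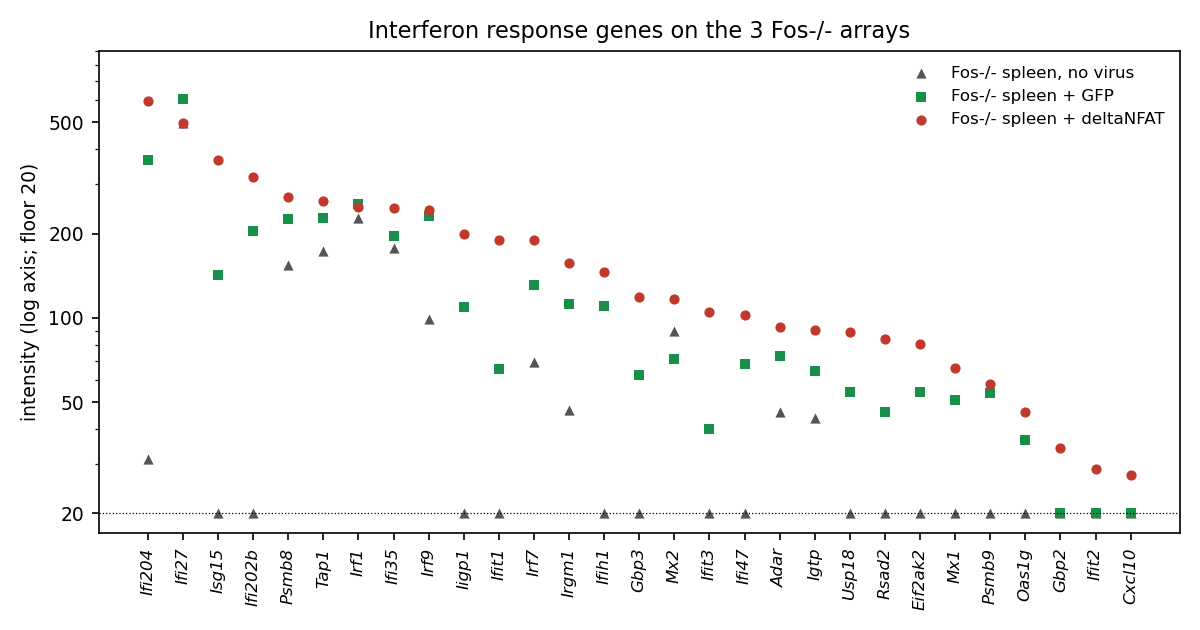
Intensity of the interferon response genes on the 3 Fos-/- arrays, on a log axis with a floor of 20 (dotted line), ordered by the deltaNFAT value; each symbol is 1 array. The deltaNFAT value is above the GFP value in 27 of 29 genes, Ifi27 and Irf1 being the exceptions, and many genes lie at the floor without virus.

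Antigen presentation genes had 2 of 6 bright members higher, 0 lower and a median of 0.07. Cd74, the invariant chain that guides MHC class II molecules, read 332 with deltaNFAT, 92.9 with GFP, 97.5 without virus, 69.1 in Fos+/+ spleen and 76.4 in Fos+/+ bone marrow, 3.57-fold higher with deltaNFAT than with GFP. H2-DMa, which loads peptides onto MHC class II, read 96.0 with deltaNFAT, 133 without virus and was under the floor with GFP (at least 4.80-fold). Its other probe set was under the floor on all arrays. The chain H2-Eb1 read 54.7 and 60.9, and H2-Aa and H2-Ab1 were under the floor on all 5 arrays. Of the Fc receptor and ITAM genes, Fcgr2b, the inhibitory receptor for immunoglobulin G, read 203 with deltaNFAT, 85.3 with GFP and 28.0 without virus (2.38-fold), whereas Fcer2a, the low-affinity receptor for immunoglobulin E, read 33.8, 114 and 41.6 (3.38-fold lower).

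Among vitamin D and glucocorticoid genes, 3 of 21 bright members were higher, 0 lower, and the median was 0.00. Mt2, a metal-binding metallothionein, read 1585 with deltaNFAT, 554 with GFP, 1907 without virus, 2556 in Fos+/+ spleen and 2237 in Fos+/+ bone marrow, so the GFP array was the one that stood low (2.86-fold). Mt1 read 1522, 990 and 1749 on the Fos-/- arrays. Hsd11b1, which activates glucocorticoids, read 65.1 with deltaNFAT and 18.1 with GFP (at least 3.25-fold), and Car2 was the other gene called. Fkbp5, a glucocorticoid target, read 907 and 931.

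The stromal, macrophage and pan-haematopoietic markers were close between the 2 virus arrays. The summed intensity of 5 stromal collagen and matrix genes was 10069 with deltaNFAT and 9975 with GFP, that of 5 macrophage markers 3876 and 4086, and that of 5 pan-haematopoietic markers 2335 and 2506. The 5 osteoclast markers, all described above, summed to 3356 and 1679, beside 1709 without virus, 11708 in Fos+/+ spleen and 9426 in Fos+/+ bone marrow. Most of the sum on both virus arrays came from Mmp9 (1714 and 1188), which was not called, and Acp5 (964 and 239). The 5 neutrophil granule markers summed to 4078 and 6042, beside 2772 without virus. The 4 adipocyte markers on the array summed to 876 with deltaNFAT, 676 with GFP and 219 without virus, a sum carried by the lipase Lpl (783, 570 and 126), while Adipoq (26 and 27.5), Fabp4 (47.9 and 48.8) and Pparg (18.7 and 30.5) were level or lower with deltaNFAT. The B cell markers summed to 62.9 with deltaNFAT, 35.2 with GFP and 160 without virus, and the T and NK cell markers to 95.1, 140 and 171, nearly all of it from Cd4. Each neutrophil marker was lower with deltaNFAT, with log2 ratios from -0.73 to -0.46, but none reached 2-fold, and the wider neutrophil list had 1 higher, 0 lower and a median of -0.20. In the wider macrophage list 1 of 20 was higher, the integrin chain Itgam, and in the pan-haematopoietic list 0 of 17 were called. The T cell markers Cd3e, Cd3d and Cd8a, the mast cell markers Cpa3 and Kit, the B cell marker Cd79a, the platelet marker Pf4 and the endothelial markers Pecam1, Cdh5 and Tek were at or under the floor on both virus arrays. The part of any cell type in the differences was not tested.

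The other lists had few calls. In the stromal list 0 were higher and 1 lower of 33, with a median of -0.05, in the V-ATPase list 0 of 15 were called (median 0.03), in the complement list 0 of 12 (median -0.16), and in the proliferation list 0 were higher and 1 lower of 21 (median 0.21). The T and NK cell list had a median of 0.57 over 8 members, with 1 higher and 1 lower of 4 bright, and the endothelial list one of -0.62 over 9, with 1 lower of 5 bright. The lower proliferation gene was the cyclin Ccnd3, at 56.9 with GFP and under the floor with deltaNFAT.

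**Figure D5:**
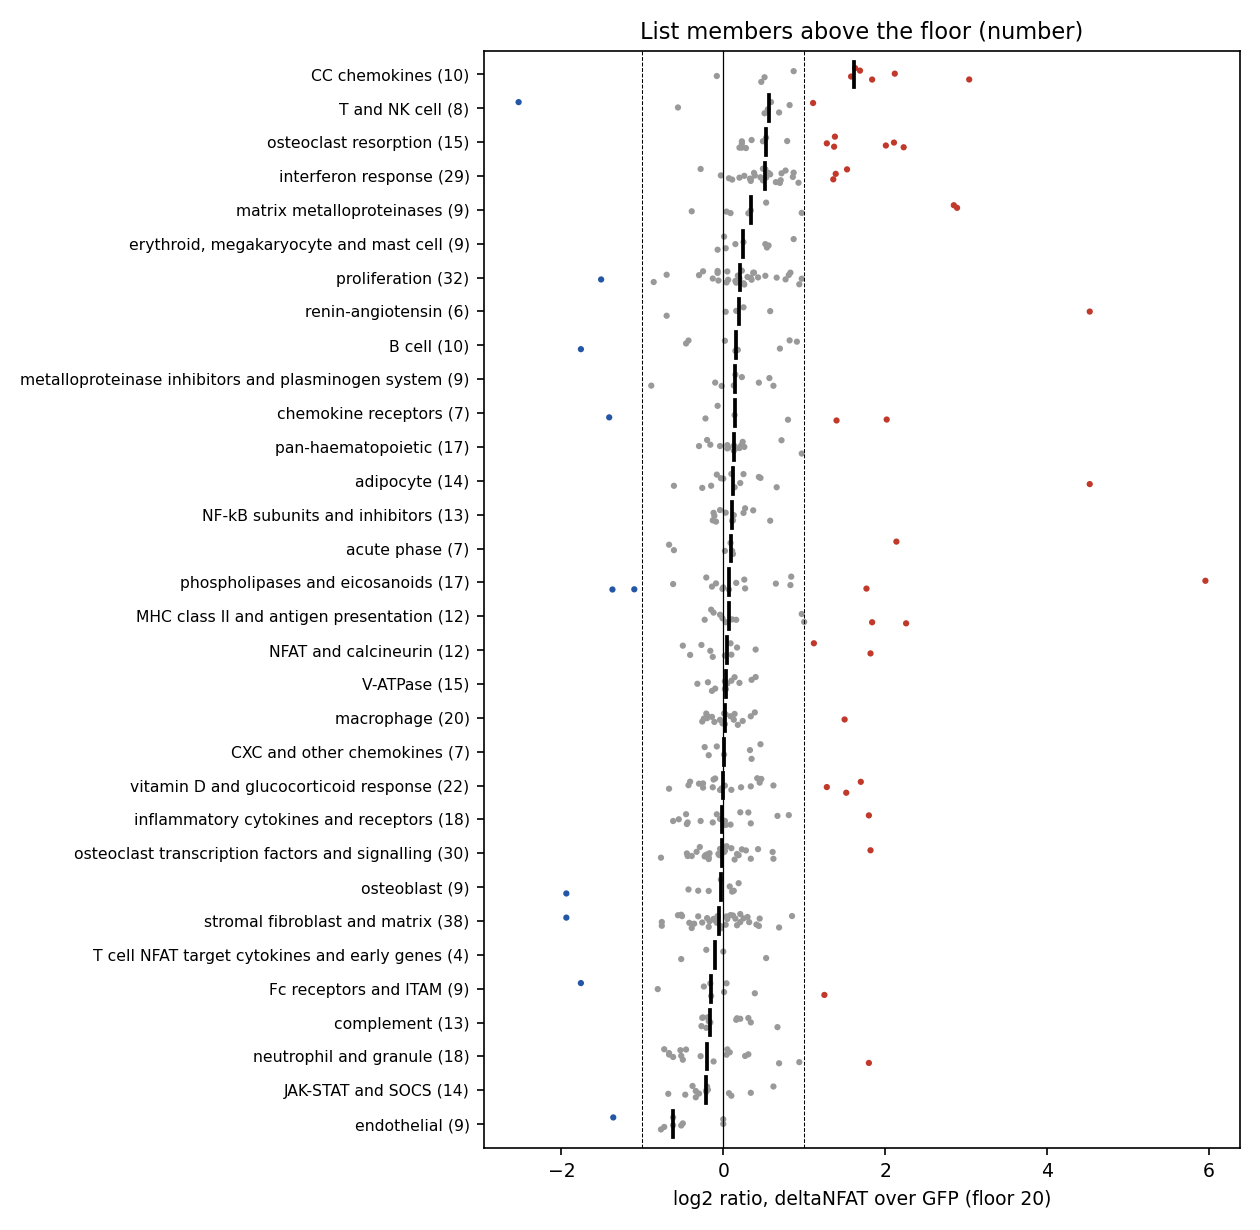
Log2 ratio of deltaNFAT over GFP for each list member above the floor, 1 point per gene, with the list's median as a bar and the number of members beside its name; red and blue points are called higher and lower. CC chemokines (1.61) have the highest median, and the osteoclast resorption list (0.53) and the interferon list (0.52) lie to the right of 0.

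Called genes were mostly dim in both directions. The brighter array read 100 or more in 37 of the 132 lower genes and 57 of the 177 higher ones. Hoxa4, a homeobox transcription factor, read 188 with GFP, 244 without virus, 235 in Fos+/+ spleen and 237 in Fos+/+ bone marrow, and 16.3 with deltaNFAT, at least 9.39-fold lower. Its 3 other probe sets were not called, nor was the gene with the mean of all probe sets or with unsuffixed ones alone. Fastk, a mitochondrial RNA-binding protein, was the brightest of the named lower genes: 117 with deltaNFAT, 358 with GFP, 346 without virus, 388 in Fos+/+ spleen and 449 in Fos+/+ bone marrow, 3.06-fold lower. For Hoxa4 and Fastk the deltaNFAT array stood apart from the other 4, which were alike.

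Abcc3, a transporter of organic anions, read 30.4 with deltaNFAT, 194 with GFP, 174 without virus, 30.9 in Fos+/+ spleen and 92.9 in Fos+/+ bone marrow (6.37-fold lower). Foxl1, a forkhead factor of mesenchyme, read 34.1 with deltaNFAT, 187 with GFP and 41.1 without virus (5.48-fold), so that GFP was the array that stood high. Lipa, the lysosomal acid lipase, read 107 with GFP and 52.5 without virus and was under the floor with deltaNFAT (at least 5.33-fold), and the T cell adaptor Sh2d2a read 116, 124 and under the floor (at least 5.78-fold). The chromatin genes Phf1 and Ubn1 were at least 5.34-fold and 4.90-fold lower, and the matrix protein Smoc1 at least 4.49-fold. The haematopoietic cofactor Zfpm1 was at least 4.47-fold lower and the slow-muscle troponin Tnni1 at least 4.45-fold. The other probe set of Ubn1 was under the floor on all arrays.

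The mesenchymal cadherin Cdh11 read 25.4 with deltaNFAT, 97.2 with GFP and 61.7 without virus (3.83-fold lower). It was the 1 gene called in the stromal list, which does not hold every stromal or matrix gene named here. The mannose phosphate enzyme Pmm1 (4.78-fold), the lens crystallin Crygd (3.51-fold), the neuronal tubulin regulator Stmn2 (3.50-fold), Glod4 (3.32-fold), the nuclear receptor coactivator Ncoa5 (3.17-fold), 1700037H04Rik (3.05-fold), the laminin chain Lama5 (3.01-fold) and the somatostatin receptor Sstr4 (2.97-fold) were lower too. Eng, the endothelial co-receptor for TGF-beta, read 29.2 and 75.1 (2.57-fold). Rps29, a ribosomal protein gene, and the nuclear pore gene Nup85 were 3.82-fold and 3.46-fold lower, but a second probe set of Rps29 was called higher, at 46.6 and 13.9, and the other probe set of Nup85 gave a log2 ratio of 0.10. The other probe set of Lama5 read 28.0 with deltaNFAT and 51.0 with GFP and was not called. The second probe set of Crygd was under the floor on all arrays, and Crygd, Rps29 and Nup85 were not called with the mean of all probe sets.

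In several other higher genes the GFP array was the lowest of the 3 Fos-/- arrays. Oxt, the oxytocin precursor, read 129 with deltaNFAT, 153 without virus, 110 and 152 on the Fos+/+ arrays and was under the floor with GFP (at least 6.44-fold). Krtap5-1, a hair keratin-associated protein, and Cpne6, a calcium-binding copine, were at least 5.88-fold and 6.01-fold higher, and read 187 and 90.4 without virus. The cadherin Cdh3 read 106 with deltaNFAT and 86.4 without virus (at least 5.31-fold), while its other probe set read 62.1 and 66.6. Pigs, a subunit of the enzyme that attaches GPI anchors, read 110, 25.4 and 123 on the deltaNFAT, GFP and uninfected Fos-/- arrays (4.32-fold), and 2210010C04Rik, Zfp358 and Tbc1d20 followed the same order with 3.89-fold, 3.72-fold and 3.39-fold. Fam20c, a kinase of secreted proteins needed for mineralisation, read 186, 32.5 and 95.8 (5.71-fold), and Hyal2, a hyaluronidase, 174, 45.8 and 59.2 (3.80-fold). The other probe set of Hyal2 was under the floor on both virus arrays, and the gene was not called with the mean of its probe sets. Klrd1, a natural killer cell receptor chain, read 43.3 and was under the floor with GFP (at least 2.17-fold).

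The Fos-/- array without virus gives a further view of each call. Of the 207 probe sets higher with deltaNFAT, the uninfected value was nearer to deltaNFAT for 53.1% and nearer to GFP for 46.9%, and of the 163 lower ones it was nearer to deltaNFAT for 36.8% and nearer to GFP for 63.2%. The calls were chosen on the same virus arrays, and these shares were not computed over all probe sets. No conclusion about the called probe sets is therefore drawn from them. Across the Fos-/- arrays, deltaNFAT was at least 2-fold above both others in 75 probe sets, GFP in 48 and no virus in 219. It was at least 2-fold below both others in 85, GFP in 82 and no virus in 503. The array without virus thus stood apart from the others most often, which limits its use as a reference. The genes at least 3-fold above both other arrays at 200 or more were Agt, Ccl2, Ccl7, Cd74, Ctsk, Mmp13, Pla2g2a and Saa3. Over no virus these were 9.88-fold (Ccl2), 11.6-fold (Ccl7), 3.40-fold (Cd74), 6.07-fold (Ctsk), 19.8-fold (Mmp13), 52.8-fold (Pla2g2a) and 7.74-fold (Saa3) higher, and at least 23.1-fold for Agt. The rule that picked these genes required 3-fold or more over no virus, so such folds are no further evidence.

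The arrays were close on most of the quality measures at hand. The trimmed mean was equal on all 5, which follows from scaling and says nothing of quality. Between 20.3% and 22.4% of the values were at or below 0. Of the member probe sets 6775 with deltaNFAT and 6643 with GFP lay above the floor. The ratio of 3-prime to 5-prime control probe sets was 1.18 and 1.31 for Actb and 0.831 and 0.767 for Gapdh. None of 18 control probe sets at 100 or more differed by 2-fold, but 4 of 28 at 40 or more did. The largest difference was in an 18S RNA control, at 23.1 with deltaNFAT and 91.1 with GFP. Of the genes called higher, 6 had a second probe set bright enough, which was called the same way in 1 and the other way in 0, and of those called lower 13 had one, called the same way in 3 and the other way in 2 (Igdcc3 and Rps29, of which Igdcc3 was named after its values were seen).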

How the data were processed

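Total RNA of 5 mouse co-cultures was measured, each on 1 one-colour array, and the groups come from the sample titles. The deposited values are linear intensities, 1 for each probe set in each culture. The sources used here do not give the software or genome build behind them, but equal trimmed means and values below 0 show a scaling and a background subtraction. The values were used without further scaling.

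Gene symbols came from the platform annotation: 10855 probe sets carried 1 symbol, 396 several and 1237 none, and 22 controls were left out of the first. Of the 10833 remaining, 10817 matched a RefSeq gene table (GRCm38.p6), which changed 0 symbols and gave gene order and promoters. The brightest probe set over the 5 arrays stood for a gene. Values of 20 and under were set to 20. Calls needed 2-fold and a brighter array of at least 40. A set of 32 gene lists was used, and each median was taken over members above the floor on at least 1 of both virus arrays.

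With 1 array per group there is no test, p-value or standard error, and the number of arrays limits the precision. The members and lists were chosen with earlier results of these data known. Named genes were the 15 with the largest fold in each direction, both virus arrays being above the floor and the brighter at 80 or more, the 8 brightest each way with the dimmer array at the floor, Fos, Nfatc1, all resorption genes, up to 6 called genes each way of every other list, and genes at least 3-fold above both other Fos-/- arrays at 200 or more. Uncalled members of other lists were named after their values were seen. The procedure was tested on simulated data. A comparison of the protein sequences of the CC chemokines was planned, because near copies may share probes, and was not made. Python 3.11.15, numpy 2.4.6, pandas 2.3.3 and matplotlib 3.10.9 were used.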

Additional observations from a re-analysis of the deposited data

How the results depend on the processing

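The number of calls depended on the floor and the brightness minimum. With a floor of 10 and a brighter array of at least 20, 378 probe sets (306 genes) were higher and 274 (214 genes) lower. With 40 and 80 the counts were 89 (83) and 71 (61), with 100 and 200 they were 19 (19) and 9 (9), and with the floor of 20 and a minimum of 100 they were 62 (57) and 42 (37). Quantile normalization and centring on the median kept the counts of probe sets and genes within 1.5 times. The median log2 ratio of probe sets was -0.001 before centring, so centring could change little. The mean of all probe sets and probe sets without a suffix, which bear on genes alone, kept the gene counts within 1.5 times. Of 43 named higher and 28 named lower genes that were called, 39 and 23 kept the call apart from other floors and minimums, and 13 and 1 (Fastk) kept it in every setting. These counts leave out 2210010C04Rik, Fcgr2b, Ptgds and Pla2g1b, which have no unsuffixed probe set, and Fcgr2b kept its call wherever it was measured. Nup85 had a log2 ratio of 0.10, in place of a lower call, with only unsuffixed probe sets. At the floor of 100 the resorption list had 3 members higher, the CC chemokines 2 (median 0.75), the metalloproteinases 1 and the interferon list 1 (median 0.30). With the mean of all probe sets the resorption median was 0.79 and that of the CC chemokines 1.61. No paired analysis was possible because each group had 1 array. Depth has no meaning for these arrays, and signal near the floor limits the calls below an intensity of 100.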

Other observations

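Genes outside the lists and the rule for named genes were looked at after their values were seen. The floor was 100 with a brighter array of at least 200, where 19 genes were higher and 9 lower with deltaNFAT. By the rule a gene called there is always called at the floor of 20, so that overlap is no further evidence. Asns, asparagine synthetase, an enzyme of the amino acid stress response, read 420 with deltaNFAT, 127 with GFP and 222 without virus and was 3.31-fold higher. Htra1, a secreted serine protease, read 581, 275 and 395 (2.11-fold), the orphan receptor Gpr50 read 327 and 164 (2-fold) and Cox8c, a subunit of cytochrome c oxidase, 253 and 119 (2.13-fold). Gm9706 was 2.02-fold higher at that floor.

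Among the lower genes of this set, Loxl1, which crosslinks elastin, read 183 with deltaNFAT, 381 with GFP and 397 without virus (2.09-fold lower). Tgfb1i1, an adaptor of focal adhesions, read 274, 554 and 728 (2.03-fold lower). Cyp21a1, the steroid 21-hydroxylase, read 106, 274 and 110 (2.59-fold lower), so that GFP stood high. The caveolar protein Cavin2, Tmem223, Scamp3, Tcf7l1 and Cuta were 2-fold to 2.14-fold lower at that floor.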
